A study of Mus musculus with 10 samples.

Results

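Angptl4, Angptl6 and Angptl8, which encode angiopoietin-like proteins secreted by the liver, were examined together with Lpl, Lipc and Lipg, which encode extracellular lipases. Lmf1, which encodes a folding factor of these lipases, and Gpihbp1, which encodes an anchor of lipoprotein lipase, were examined with them. The genes were taken by symbol from the deposited expression table, and these 8 of its 54532 genes were all found, each in 1 row. All 8 also had enough reads to be compared, among 13306 genes that did.

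The livers came from 10 mice on a C57BL/6J background that were given a high-fat diet (HFD) at 6 weeks of age, kept on it for 7 weeks and fasted for 5 h. In all 10, the ROSA26 locus carried murine ASK1 cDNA behind a lox-stop-lox cassette, on both alleles. The 5 ASK1f/f littermates were labelled as controls. By the breeding scheme they are taken to carry no Cre, which leaves the cassette closed by design. The 5 ASK1+hep mice also carried Alb-Cre, which opens it in hepatocytes under the albumin promoter. Each library was 1 liver of 1 mouse and was sequenced in bulk. Expression is given as FPKM, in which read numbers are divided by the length of the gene and by sequencing depth so that genes and livers can be set side by side.

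Lipoprotein lipase (LPL) and its relatives hydrolyse the lipids of circulating lipoproteins at the vessel wall and so decide which tissue takes up the fatty acids. ANGPTL4 inhibits LPL, and ANGPTL8 acts in complexes, among them with ANGPTL4, that shift this inhibition between tissues with feeding and fasting. Hepatic Angptl4 is known as a target of the fasting receptor PPARA, and hepatic Angptl8 as a gene that rises with insulin and feeding.

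Before the genes themselves, 2 libraries need mention. Map3k5, the gene of ASK1, measured 6.74, 6.88, 5.77, 4.71 and 19.8 FPKM in the controls numbered 1 to 5 and 16.4, 11.1, 7.68, 12.4 and 15.2 FPKM in the ASK1+hep livers numbered likewise. Against its label, the library labelled ASK1f/f replicate 5 was thus the highest of all. Its Fgf21 value, 3.21 FPKM, lay on the side of its label, among the other controls (2.46 to 4.74 FPKM) and below every ASK1+hep liver (7.40 FPKM or more). The library labelled ASK1+hep replicate 3 stood apart by gene length, with a deviation from the other livers of -0.133 on the log2 scale per doubling of gene length, where the other 9 lay between -0.0578 and 0.0601. Results are therefore given with these libraries, and without them where their removal changed a call or moved a called value or a count by over 1.5 times. Depth was even, at 13367742 to 16163378 reads on genes. The 6 hepatocyte markers summed to 31468 to 46484 FPKM, but single markers moved in opposite directions in ASK1+hep replicate 3. There Alb (14692 FPKM) and Cps1 (94.9 FPKM) were at their lowest of all livers. Ttr (8129 FPKM) and Apoa1 (17107 FPKM) were at their highest, and Serpina1b and Tat at neither end. Of 5 adipocyte markers, 4 (Adipoq, Lep, Retn and Plin1) stayed under 0.1 FPKM in every liver. The fifth, Cfd, ran from 3.78 to 160 FPKM and was highest in these same libraries, ASK1+hep replicate 3 (160 FPKM) and ASK1f/f replicate 5 (147 FPKM), and its part in the results was not tested.

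None of the 8 genes was called different between ASK1+hep and ASK1f/f livers after adjustment over all genes tested (limma on log2(FPKM + 1), Benjamini-Hochberg). Of all 13306 genes, 0% were called. Fgf21 was thus not called either, although it averaged 3.53 FPKM in controls and 19.7 FPKM in ASK1+hep livers without overlap. The study reported it as highly upregulated in these livers. A missing call here therefore does not show equal expression. At an unadjusted p under 0.05 the count was also 0 of 8, against 5.77% of all genes tested. The 2 genotypes overlapped for every one of the 8, whereas 0.864% of all genes had groups without overlap. The median log2 fold change of the 8 genes was -0.08, with 3 of them above 0, and that of all genes was -0.01. Angptl8 had the largest estimate of the 8, and its 2 highest livers were both ASK1+hep. In bulk liver, fewer cells of a type and less RNA per cell cannot be told apart, and this holds for every value that follows.

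**Figure D1:**
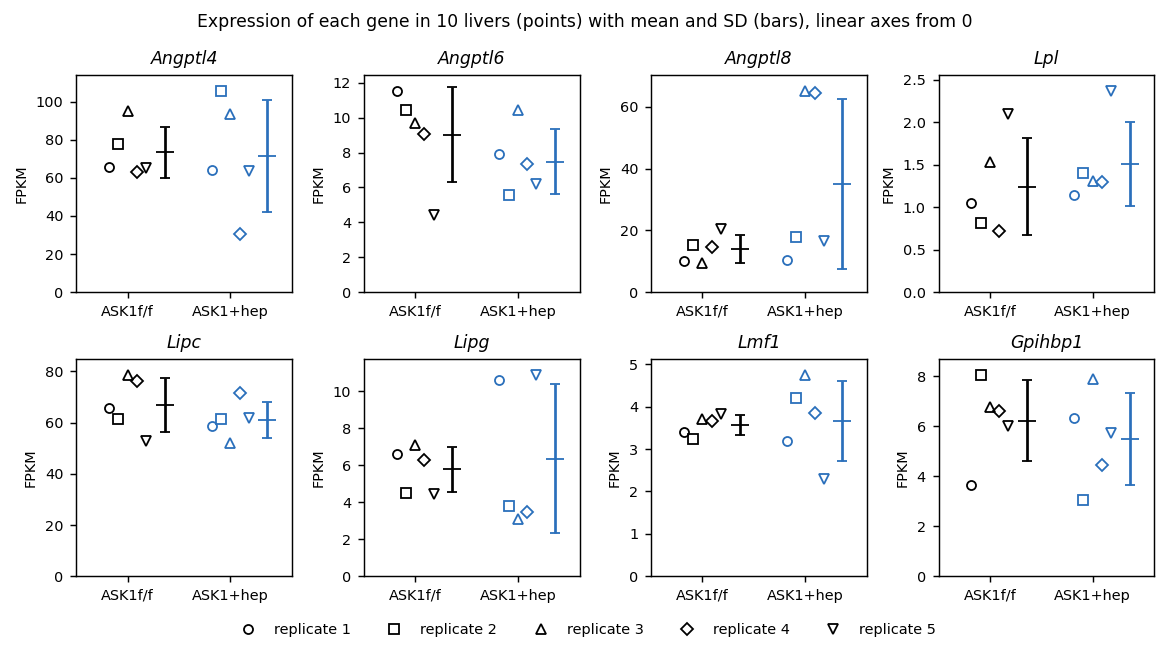
Expression (FPKM, linear axes from 0) of the 8 genes in 5 ASK1f/f livers (black) and 5 ASK1+hep livers (blue), 1 point per liver with the replicate number as marker shape, and the mean with SD beside the points. In every panel the 2 genotypes overlap, and for Angptl8 the ASK1+hep replicates 3 and 4 sit at 65.2 and 64.6 FPKM above the other 8 livers, which reach 20.5 FPKM.

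Angptl8, which encodes a small partner of ANGPTL4, lies on chromosome 9, bases 21835510 to 21837347 of the plus strand (GRCm38) in 4 exons. The gene sits inside Dock6, which runs on the opposite strand, but shares 0 exon bases with it. The 250 bases before its start are shown because they hold the letters of an element known from genes of the ATF4 stress response, which the study examined. They occupy chr9:21835260-21835509 on the plus strand of GRCm38.p6 and are taken from RefSeq, and capitals mark the only match to the C/EBP-ATF response element, to which ATF4 and C/EBP proteins bind.
Angptl8 promoter: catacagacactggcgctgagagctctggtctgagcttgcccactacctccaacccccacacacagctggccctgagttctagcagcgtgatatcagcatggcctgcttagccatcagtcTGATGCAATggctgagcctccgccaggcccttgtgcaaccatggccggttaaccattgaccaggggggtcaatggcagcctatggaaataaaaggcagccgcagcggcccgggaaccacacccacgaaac
The element, searched as TGATGNAAN on both strands, lies at -130 to -122 from the start. It was present in 3.95% of 32851 mouse promoter windows that reach 250 bases before and 50 after the start. RefSeq windows were searched for 4 of the 8 genes (Angptl6, Angptl8, Lipc and Lmf1), and Angptl8 was the only one of these 4 with a match. The other genes were not searched, so whether they hold a match is not known here. An E-box (CACGTG) and a TATA box (TATAAA) were matched in none of the 4, against 7.15% and 13.6% of all windows. A CCAAT box (CCAAT) was found in Lipc alone, at its first start at -14 to -10, at -7 to -3 and, on the minus strand, at -135 to -131, and also at a second start, against 37.4% of all windows with at least 1. These are matches of letters, chosen after the sequence was read, and do not show that a factor binds there.

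Angptl8 was at 10.2, 15.3, 9.43, 14.5 and 20.5 FPKM in ASK1f/f replicates 1 to 5. In ASK1+hep livers, in the same order, it measured 10.5, 17.8, 65.2, 64.6 and 16.4 FPKM. The ASK1+hep livers thus fell into 3 within the range of the controls and 2 at more than 3 times the highest control, so that the groups overlapped. The controls averaged 14.0 ± 4.47 FPKM (SD, n = 5) and the ASK1+hep livers averaged 34.9 ± 27.5 FPKM (SD, n = 5), a ratio of 2.49. The log2 fold change was 0.94 (standard error 0.47, 95% interval -0.08 to 1.96), with an unadjusted p = 0.0688 and an adjusted p = 0.812 from limma. This placed the gene at rank 1074 by p among all genes tested. By exact permutation of the livers between genotypes (two-sided, n = 5 per group) p was 0.159, where such a design can reach 0.00794.

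The 2 high livers carried this estimate. Leaving out ASK1+hep replicate 3 lowered the log2 fold change to 0.62, and leaving out replicate 4 lowered it to 0.63. Leaving out ASK1+hep replicate 1 raised it to 1.25 (unadjusted p = 0.0141 from limma) and leaving out replicate 5 raised it to 1.10 (unadjusted p = 0.0488). With a weight for library quality, which was lowest for ASK1+hep replicate 3 at 0.238, limma-voom gave 0.95 (unadjusted p = 0.0440). With the animal tag prefix as a covariate limma gave 0.94 (unadjusted p = 0.0480). No adjusted p reached the threshold in these fits. Fgf21, the hepatokine the study is about, did not share this division: it measured 30.1 and 23.4 FPKM in ASK1+hep replicates 3 and 4, but replicate 2, where Angptl8 stood at 17.8 FPKM, lay between these values.

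Angptl4 encodes the LPL inhibitor and was, with Lipc, the most highly expressed of the 8 genes by median FPKM. The gene lies on chromosome 17, bases 33773750 to 33781575 of the minus strand. Controls 1 to 5 measured 65.7, 78.0, 95.1, 63.3 and 65.3 FPKM. The ASK1+hep livers measured 64.2, 105.8, 93.3, 30.6 and 63.7 FPKM. The highest and the lowest of all 10 livers were both ASK1+hep, and the spread relative to the mean was 41.0% there against 18.3% in the controls. The log2 fold change was -0.14 (standard error 0.28, 95% interval -0.75 to 0.48), with an adjusted p = 0.914 from limma. Its sign rested on 1 liver, since without ASK1+hep replicate 4 it was 0.13. In that liver the 2 angiopoietin-like genes thus diverged, with Angptl4 at its lowest and Angptl8 at 64.6 FPKM.

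Angptl6, which encodes a circulating angiopoietin-like factor also known as AGF, lies on chromosome 9, bases 20873808 to 20879727 of the minus strand. In the controls it was at 11.5, 10.4, 9.68, 9.05 and 4.44 FPKM. In ASK1+hep livers it was at 7.90, 5.57, 10.4, 7.36 and 6.19 FPKM. The lowest value of all 10 belonged to the library labelled ASK1f/f replicate 5, and the other 4 controls lay above 4 of the 5 ASK1+hep livers. The log2 fold change was -0.21 (standard error 0.22, 95% interval -0.70 to 0.28), with an adjusted p = 0.842 from limma.

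Without the library labelled ASK1f/f replicate 5 it was -0.42 (unadjusted p = 0.0244 from limma), and without that library and ASK1+hep replicate 3 together it was -0.53 (standard error 0.12, unadjusted p = 0.00163, adjusted p = 0.302). These libraries held the lowest control (4.44 FPKM) and the highest ASK1+hep value (10.4 FPKM) of Angptl6, so leaving them out was bound to widen the difference. Their joint removal was chosen after the data were seen. Over the 10 livers Angptl6 and Map3k5 varied in opposite directions (Pearson r = -0.795, permutation p = 0.00704, adjusted p = 0.0563 over 32 relations, Spearman rho = -0.697, permutation p = 0.0314). Without the 2 livers farthest from the median of Map3k5, r was -0.763 (exact permutation p = 0.0356), and among deviations from the genotype means it was -0.787. The 32 relations set each of the 8 genes against Map3k5, the gene length deviation and the endothelial and macrophage marker sums. They were chosen after the data were seen, and this one did not pass the adjustment. Angptl6 shares 265 of its 1582 exon bases (16.8%) with A230050P20Rik on the opposite strand. Whether the libraries kept strand is not given in the sources used here, so reads of the overlap cannot be assigned with certainty.

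Lipc encodes hepatic lipase, which hepatocytes make and which acts on remnants and HDL in the sinusoids. It lies on chromosome 9, bases 70798128 to 70952226 of the minus strand, in 9 exons. ASK1f/f livers had it at 65.5, 61.3, 78.7, 76.2 and 52.8 FPKM, and ASK1+hep livers at 58.7, 61.4, 52.0, 71.3 and 61.7 FPKM. Lipc was the steadiest of the 8 genes, with the highest liver 1.51 times the lowest. Its log2 fold change was -0.12 (standard error 0.13, 95% interval -0.41 to 0.17), with an adjusted p = 0.844 from limma.

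Lpl encodes lipoprotein lipase, which adult hepatocytes make little of and which muscle and fat make in quantity. The gene lies on chromosome 8, bases 68880491 to 68907448 of the plus strand. Controls had it at 1.05, 0.812, 1.53, 0.715 and 2.09 FPKM, and ASK1+hep livers at 1.15, 1.40, 1.30, 1.29 and 2.37 FPKM. The highest liver of each genotype was replicate 5, and both stood above the other 8. The log2 fold change was 0.18 (standard error 0.17, 95% interval -0.20 to 0.56), with an adjusted p = 0.838 from limma. Macrophages also express Lpl, and the library labelled ASK1f/f replicate 5 had the highest sum of 6 Kupffer cell and macrophage markers, 151 FPKM, but the sum was 108 FPKM in ASK1+hep replicate 5, within the range of 57.0 to 139 FPKM of that genotype. Over the 10 livers, Lpl and this sum had a Pearson r of 0.255 (permutation p = 0.478, adjusted p = 0.765 over 32 relations). Spearman rho was 0.345 (permutation p = 0.330). The part of macrophages in the Lpl values was not tested further.

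Lipg encodes endothelial lipase, a phospholipase of HDL, and lies on chromosome 18, bases 74939322 to 74961263 of the minus strand. The ASK1f/f livers measured 6.58, 4.48, 7.08, 6.30 and 4.43 FPKM. The ASK1+hep livers measured 10.6, 3.78, 3.07, 3.47 and 10.9 FPKM. The ASK1+hep livers split, with replicates 1 and 5 above every control and replicates 2, 3 and 4 below every control. The mean was therefore alike, at 5.77 ± 1.24 and 6.36 ± 4.00 FPKM (SD, n = 5 each), for a log2 fold change of -0.03 (standard error 0.31, 95% interval -0.72 to 0.65) with an adjusted p = 0.986 from limma. The 3 low ASK1+hep livers were the same as the 3 with a gene length deviation below 0.

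Lmf1, whose product helps LPL, hepatic lipase and endothelial lipase to fold in the endoplasmic reticulum, lies on chromosome 17, bases 25579174 to 25662826 of the plus strand. The controls were close together at 3.39, 3.25, 3.70, 3.67 and 3.82 FPKM. The ASK1+hep livers ranged more widely, at 3.18, 4.21, 4.75, 3.86 and 2.30 FPKM. Here replicates 2, 3 and 4 lay above every control and replicates 1 and 5 below every control, the reverse of Lipg. The coefficient of variation was 6.59% among controls and 25.9% among ASK1+hep livers, for a log2 fold change of 0.01 (standard error 0.14, 95% interval -0.30 to 0.32), with an adjusted p = 0.995 from limma.

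Gpihbp1 encodes the capillary protein that binds LPL and carries it to the vessel lumen, and it lies on chromosome 15, bases 75596628 to 75599481 of the plus strand. Controls had it at 3.66, 8.06, 6.78, 6.61 and 6.00 FPKM, and ASK1+hep livers at 6.31, 3.03, 7.87, 4.45 and 5.71 FPKM. The highest 3 values came from both genotypes, and so did the lowest 3. The log2 fold change was -0.17 (standard error 0.22, 95% interval -0.66 to 0.31), with an adjusted p = 0.866 from limma. It was -0.02 without ASK1+hep replicate 2 and -0.32 without ASK1f/f replicate 1. Read counts behind the genes ranged from 100 to 324 per liver for Gpihbp1 to 1485 to 4677 for Angptl4, so that counting error differed between the genes. By median over the 10 livers, Lpl (195 reads), Angptl8 (197.5), Angptl6 (215.5) and Gpihbp1 (246.5) rested on the fewest.

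**Figure D2:**
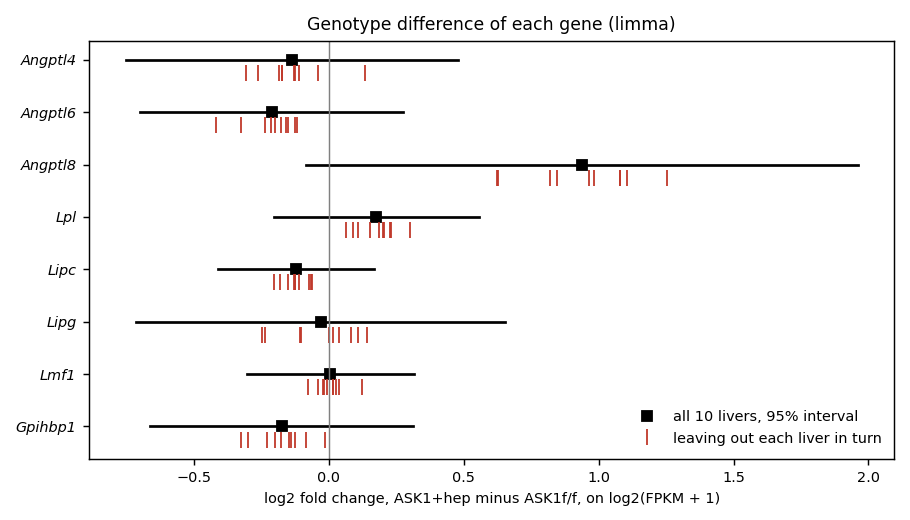
Log2 fold change of each gene (ASK1+hep minus ASK1f/f, on log2(FPKM + 1)) from limma over all 10 livers with its 95% interval (black), and the estimates when each liver in turn was left out (red ticks). Every black interval includes 0, and the ticks lie on both sides of 0 for Angptl4, Lipg and Lmf1, while those of Angptl8 run from 0.62 to 1.25.

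Ordered by median FPKM over the 10 livers, the genes ran from Angptl4 (65.5) and Lipc (61.5) through Angptl8 (15.9), Angptl6 (8.47), Gpihbp1 (6.16) and Lipg (5.39) to Lmf1 (3.68) and Lpl (1.30). Each neighbour pair in this order overlapped in range. The order held within a liver in 8 of 10 livers for Angptl4 over Lipc, but in 5 of 10 for Gpihbp1 over Lipg. Angptl4 was above 94.6% of all genes tested and Lpl above 30.2%. The lengths behind these FPKM matter for 3 genes, because the deposited length of Lmf1 is 13471 bases where its longest coding transcript has 1861, that of Lpl is 10478 against 4115, and that of Gpihbp1 is 2554 against 825. If every read of a gene came from its longest coding transcript, which was not tested, the medians per base of it would be higher. They would be 26.7 for Lmf1, 19.1 for Gpihbp1 and 3.30 for Lpl. That would place Lmf1 and Gpihbp1 above Angptl8, and Lipc (68.9) above Angptl4 (65.0). The ratio of a gene's FPKM between livers does not depend on this length, but its fold change on log2(FPKM + 1) does, most for low genes: that of Lpl, 0.18 on this scale, was 0.31 on log2(FPKM + 0.1) and 0.34 by limma-voom.

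Among the 28 pairs of the 8 genes, 14 were positively correlated over the 10 livers and 1 passed Benjamini-Hochberg adjustment. This was Lipg with Lmf1 (Pearson r = -0.815, permutation p = 0.00167, adjusted p = 0.0468, and Spearman rho = -0.879, permutation p = 0.00166, adjusted p = 0.0465). Among deviations from the genotype means r was also -0.815, and without the 2 livers farthest from the median of Lipg it was -0.656 (exact permutation p = 0.0742), so the relation leaned on those livers. Angptl8 with Lipg (r = -0.711, permutation p = 0.0192, adjusted p = 0.269) and Angptl6 with Lpl (r = -0.686, permutation p = 0.0288, adjusted p = 0.269) did not pass. The rho of these pairs were -0.770 (permutation p = 0.0129) and -0.624 (permutation p = 0.0595), and r without the 2 farthest livers was -0.507 (exact permutation p = 0.201) and -0.627 (exact permutation p = 0.0905).

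Values of the whole library moved with some of these genes. The gene length deviation was correlated with Lipg (Pearson r = 0.805, permutation p = 0.00332, adjusted p = 0.0434 over 32 relations, Spearman rho = 0.891, permutation p = 0.0010, adjusted p = 0.0320) and, in the opposite direction, with Lmf1 (r = -0.838, permutation p = 0.00407, adjusted p = 0.0434, rho = -0.842, adjusted p = 0.0562). Leaving out ASK1+hep replicate 3, which lay apart on this measure, left 9 livers with r = 0.819 (exact permutation p = 0.00279) for Lipg and -0.791 (exact permutation p = 0.00513) for Lmf1. Leaving out the 2 livers farthest from its median gave 0.768 (exact permutation p = 0.0168) and -0.853 (exact permutation p = 0.0163). After each liver was corrected for GC content and gene length, Lipg and Lmf1 were still correlated at r = -0.847. Angptl8 also varied with this deviation (r = -0.796, permutation p = 0.0105, adjusted p = 0.0672, rho = -0.576, permutation p = 0.0861), but without the 2 farthest livers r was -0.157 (exact permutation p = 0.725), so this rested on them. The correction changed the log2 fold change of Angptl8 from 0.94 to 0.77 and that of Angptl6 from -0.21 to -0.35. The part of the library deviation in these 3 genes was not otherwise tested, and these relations were chosen after the data were seen.

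For Gpihbp1, the matching library value was the sum of 7 endothelial markers, which were all detected above the filter. This sum ran from 26.8 to 39.3 FPKM in controls and from 22.1 to 39.2 FPKM with Alb-Cre. It fell into 3 livers of at most 26.8 FPKM (ASK1f/f replicate 1 and ASK1+hep replicates 2 and 4) and 7 livers of at least 34.4 FPKM. The 3 lower livers were also the 3 with the lowest Gpihbp1, at 3.66, 3.03 and 4.45 FPKM. Within the 7 others r was 0.328 (exact permutation p = 0.466), so within their narrow range of 34.4 to 39.3 FPKM no relation was detectable, and the part of endothelial RNA in the Gpihbp1 values was not tested further.

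**Figure D3:**
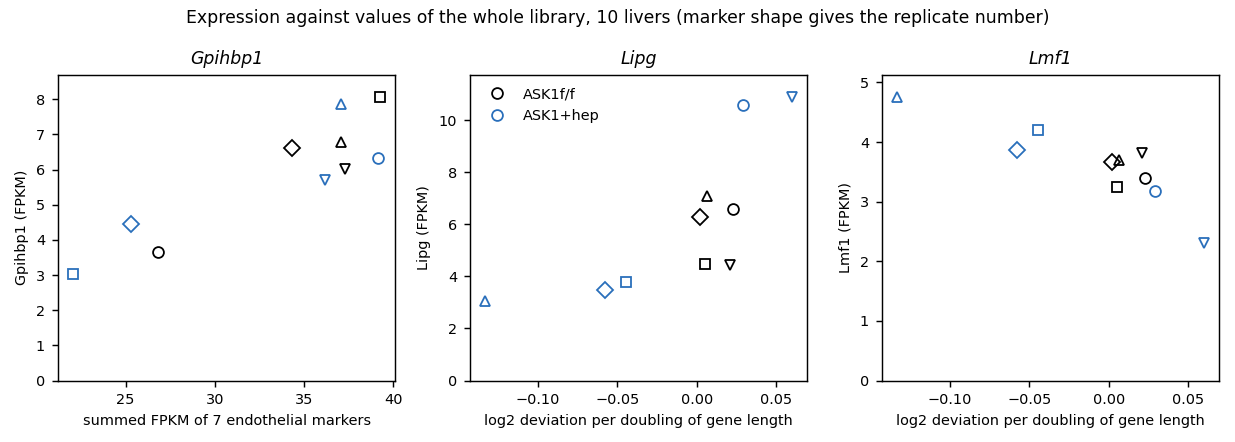
Expression (FPKM) of Gpihbp1 against the summed FPKM of 7 endothelial markers, and of Lipg and Lmf1 against the log2 deviation of each liver per doubling of gene length, for 5 ASK1f/f livers (black) and 5 ASK1+hep livers (blue), with the replicate number as marker shape. Gpihbp1 is lowest in the 3 livers with an endothelial sum of at most 26.8 FPKM, Lipg is higher and Lmf1 lower toward the right of their panels, and ASK1+hep replicate 3 lies at -0.133.

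The genes most like each of the 8, by Pearson r of log2(FPKM + 1) over the 10 livers among all genes tested, are given as a description. For Angptl8 these were Sertad1 (0.956), Hax1 (0.953) and Upf3a (0.950), and for Angptl4 Irf2bp2 (0.945), Fundc1 (0.939) and 2010111I01Rik (0.931). For Angptl6 they included Ecm1 (0.920) and Aldoc (0.910). Gpihbp1 was nearest to Afap1l1 (0.954), Tie1 (0.940) and Tspan2 (0.936), of which Tie1 encodes an endothelial receptor kinase. Lipg was nearest to Lclat1 (0.969), Gapvd1 (0.959) and Fam160b1 (0.946), and genes near Lmf1 included Gltpd2 (0.949) and Ctf1 (0.948). For Lipc the nearest were Ndc1 (0.935), Cenpq (0.927) and Casp6 (0.924), and for Lpl, with the lowest values, Zfp940 (0.887), Abca8b (0.869) and Tnpo2 (0.856).

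The genes around these 8 were read from 8 lists with 65 genes, of which 58 could be tested. None of the 58 passed adjustment over all genes by limma, whereas 5 were higher and 3 lower in ASK1+hep livers at an unadjusted p under 0.05, where 3.05% and 2.72% of all genes were. Their median log2 fold change was -0.01, as for all genes. These 8 became 5 without ASK1f/f replicate 3, the lowest count when 1 liver was left out.

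Among other angiopoietin-like genes, Angptl1 and Angptl7 were too low to test, and Angptl2 had a log2 fold change of -0.09 (limma adjusted p = 0.898). Among 6 further genes of the lipase family, Pla1a, a phosphatidylserine-specific phospholipase, could be tested (20.3 ± 3.88 and 16.5 ± 2.42 FPKM, SD, n = 5 each, log2 fold change -0.27, adjusted p = 0.812 from limma). The pancreatic lipase genes Pnlip, Pnliprp1 and Pnliprp2 and the genes Liph and Lipi were too low. Of 6 genes for lipase maturation and cleavage, 0 had an unadjusted p under 0.05, and the 3 lowest p belonged to Pcsk6 (-0.18) and Pcsk7 (-0.10), which encode proprotein convertases, and to Lmf2 (0.23), the relative of Lmf1.

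The apolipoproteins that activate or inhibit these lipases had the highest median of the lists, with a log2 fold change of 0.47 and 6 of 7 above 0. Without ASK1+hep replicate 3, in which Apoc1, Apoc3, Apoc4, Apoa4 and Apoe were at their highest, the median was 0.21, also with 6 of 7 above 0. Apoa4 alone had an unadjusted p under 0.05 (log2 fold change 1.07 with a standard error of 0.47, limma adjusted p = 0.812). It was at 294 ± 151 FPKM in controls against 634 ± 368 FPKM with Alb-Cre (SD, n = 5 each), with the genotypes overlapping. Apoc4 (log2 fold change 0.73) and Apoc1 (0.47), which sit together in the Apoe cluster, did not pass even before adjustment. Without ASK1+hep replicate 3, that of Apoc4 was 0.40 and that of Apoc1 was 0.28.

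Of 11 remnant receptors and heparan sulfate genes, Lrp1, a receptor that clears remnants, had an unadjusted p under 0.05 (44.9 ± 6.13 and 34.5 ± 8.18 FPKM, SD, n = 5 each, log2 fold change -0.40, adjusted p = 0.812 from limma). Without ASK1+hep replicate 3 the log2 fold change of Lrp1 was -0.23. Ndst1, which sulfates heparan chains, was at -0.54 with that liver and -0.24 without it. Vldlr, the third by p, was under 0.3 FPKM in every liver.

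Among 6 intracellular lipases and cofactors, 2 were higher at an unadjusted p under 0.05, and the median log2 fold change was 0.18, or 0.02 without ASK1+hep replicate 3. Pnpla2, which encodes adipose triglyceride lipase, was at 40.7 ± 5.84 FPKM in controls against 54.7 ± 10.1 FPKM with Alb-Cre (SD, n = 5 each, log2 fold change 0.41 with a standard error of 0.15, limma adjusted p = 0.812). G0s2, which encodes the inhibitor of that lipase, was at 99.95 ± 35.9 and 214 ± 126 FPKM (SD, n = 5 each, log2 fold change 0.96 with a standard error of 0.38, limma adjusted p = 0.812). The 2 highest livers for G0s2 were ASK1+hep replicates 4 (370 FPKM) and 3 (330 FPKM), the same livers as for Angptl8. Lipe, hormone-sensitive lipase, had a log2 fold change of 0.29, and 0.02 without ASK1+hep replicate 3.

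The PPARA targets listed beside Angptl4 had a median log2 fold change of 0.17, with 9 of 14 above 0 and 2 higher at an unadjusted p under 0.05. Angptl4 itself was at -0.14 (95% interval -0.75 to 0.48), and at 0.13 without ASK1+hep replicate 4. The difference between Angptl4 and this list was not tested. Cyp4a14, an omega-hydroxylase of fatty acids, was at 90.2 ± 43.5 and 269 ± 157 FPKM (SD, n = 5 each, log2 fold change 1.49 with a standard error of 0.44, limma adjusted p = 0.804). Vnn1, a pantetheinase, reached 32.9 FPKM at most in ASK1f/f and at least 33.5 FPKM in ASK1+hep livers, so the genotypes did not overlap (log2 fold change 0.72, adjusted p = 0.804 from limma). Fabp1, the fatty acid binding protein of liver, was at 0.52 on this scale (adjusted p = 0.812 from limma).

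The lipogenic genes listed beside Angptl8, which share its response to insulin and feeding, had a median of -0.02 with 5 of 11 above 0, which was -0.11 without ASK1+hep replicate 3 and 0.05 without ASK1f/f replicate 5, and 2 were lower at an unadjusted p under 0.05. Pklr, the liver pyruvate kinase, was at 75.5 ± 18.7 FPKM in controls against 45.4 ± 7.62 FPKM with Alb-Cre (SD, n = 5 each, log2 fold change -0.71 with a standard error of 0.17, limma adjusted p = 0.712). Its lowest control, at 56.4 FPKM, was above its highest ASK1+hep liver, at 53.7 FPKM. Acly, which supplies acetyl-CoA for lipogenesis, had a log2 fold change of -0.55 (standard error 0.18, adjusted p = 0.812 from limma), and Mlxipl, the gene of ChREBP, one of -0.24. Angptl8, at 0.94, lay above every gene of this list, whose highest log2 fold change was 0.27, and the difference between them was not tested.

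**Figure D4:**
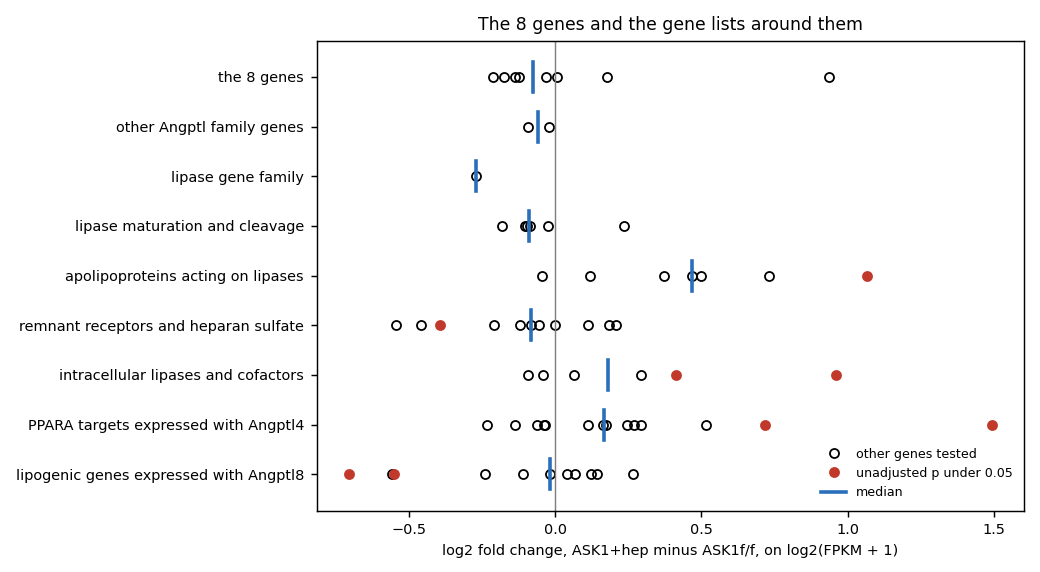
Log2 fold change (ASK1+hep minus ASK1f/f, on log2(FPKM + 1)) of the 8 genes and of the 58 list genes tested, 1 circle per gene, filled red at an unadjusted p under 0.05, with the median of each list as a blue line. The 8 genes hold 0 red circles and lie between -0.21 and 0.94, and the apolipoproteins have the median farthest to the right, at 0.47, which was 0.21 without ASK1+hep replicate 3.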

How the data were processed

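Livers of 5 ASK1f/f and 5 ASK1+hep mice were compared, with genotype and replicate number from the sample labels. The deposited values are FPKM per gene: the authors had poly-A RNA sequenced, mapped the cleaned reads with Hisat2, counted them with FeatureCounts and tested them with DESeq2. The genome build is not given in the sources used here. Positions are those of the table, which for 98.3% of 54409 genes, and for 6 of the 8 genes here, equal GENCODE M21 (GRCm38).

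FPKM times gene length gave whole reads in steps (largest distance 0.000186 reads), which served for depth and for the filter (5 or more livers with 10 or more depth-scaled reads, and 15 reads over all livers). FPKM are not counts, so genotypes were compared by limma 3.58.1 (R 4.3.3) on log2(FPKM + 1), with the prior variance following mean expression and no covariates, adjusted over 13306 genes; the scale understates changes of low genes. The method was tested on simulated data. No 2 libraries were within sampling noise (lowest chi-square per degree of freedom 19.1 over 45 pairs). Correlations used 100000 permutations.

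The 8 genes and the lists were chosen with earlier results of these data known. From each list the 3 genes with the lowest p were named, and for each of the 8 the 3 genes most like it. A few genes that this rule names are not reported here. Alternatives were other filters, a pseudocount of 0.1, scaling by all reads, limma-voom (also with quality weights), the animal tag prefix, the replicate block and leaving out each liver. The GC and length correction (splines with 5 degrees of freedom), leaving out 2 libraries together, and relations with library values were added after seeing the data. Each mouse was 1 biological unit.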

Additional observations from a re-analysis of the deposited data

Results flagged for a closer look

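In 1 of 16 groups examined (8 genes in 2 genotypes), a single liver lay far from the others of its genotype. Lpl was at 2.37 FPKM in ASK1+hep replicate 5, and the gap to the next liver of that genotype was 0.791 of the whole range, above the limit of 0.71 for 5 samples. Chance alone flags about 1 in 20 groups. The highest ASK1f/f liver for Lpl was also a replicate 5, at 2.09 FPKM.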

How the results depend on the processing

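Over 21 alternatives, 0 of the 8 genes and 0 of the 58 list genes passed the adjusted threshold. The number of the 8 genes with an unadjusted p under 0.05 was 0, but 1 with limma-voom and quality weights and 1 with the animal tag prefix as a covariate (Angptl8 in both), and 1 without ASK1f/f replicate 5 and ASK1+hep replicate 3 together (Angptl6). When each liver in turn was left out it ranged from 0 to 1, and that of the list genes, 8 in all livers, from 5 to 12.

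Angptl6, Angptl8, Lpl, Lipc and Gpihbp1 kept the sign of their difference in all 21 alternatives, but not its size: leaving out each liver gave -0.42 to -0.12, 0.62 to 1.25, 0.06 to 0.30, -0.20 to -0.06 and -0.32 to -0.02. The lowest and highest were without ASK1+hep replicate 5 and ASK1f/f replicate 5 for Lpl, and without ASK1f/f replicates 5 and 3 for Lipc. The other ranges were -0.31 to 0.13 for Angptl4, -0.25 to 0.14 for Lipg and -0.076 to 0.12 for Lmf1. Lipg was at 0.07 without both libraries. Lmf1 changed sign with log2(FPKM + 0.1) (-0.0011), limma-voom (-0.0025), quality weights (-0.0038), scaling by all reads (-0.059) and without both libraries (-0.057), all close to 0. The cause was not tested. Scaling by all reads moved the median of all genes to -0.05 and the share of higher genes among those with an unadjusted p under 0.05 from 52.9% to 31.4%.

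Same-numbered livers deviated together with a correlation over 0.1 in 2 of 5 pairs (mean 0.107, against -0.027 for different numbers), and 6 of 10 livers correlated best with their own number. In 4 of 5 pairs the animal tags are consecutive. The labels do not say what a number shares and not every pair was over 0.1, so the numbers were not taken as a pairing. With the replicate block, 0 of the 8 genes had an unadjusted p under 0.05 and Angptl8 had an adjusted p = 0.727 from limma, while 11 list genes had an unadjusted p under 0.05.

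Lpl, Angptl8, Angptl6 and Gpihbp1, with medians of 195 to 246.5 reads per liver, have the largest counting error.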
